A study of Mus musculus with 12 samples.

Results

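RNA from livers of mice labelled Hnf4a liver knockout was compared with RNA from livers labelled wild-type, all taken on a high fat diet. The comparison uses 6 of the 12 libraries of the series, chosen by genotype and treatment label: 3 in the group called KO HFD here (Hnf4a liver knockout, high fat diet feeding) and 3 in the group called WT HFD (wild-type, high fat diet feeding). The groups share tissue and diet and differ in the genotype label. The other 6 libraries, from the same genotypes on vivarium chow, are given only as values beside a result. The labels state neither the allele nor the promoter that drives the deletion, and they leave out strain, sex, age and the length of feeding. The 3 samples per group are described as biological replicates without naming animals, so p-values measure the spread between these samples. The comparison asks what the knockout does to liver expression on the high fat diet.

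Hnf4a encodes a nuclear receptor of hepatocytes. It binds DNA as a homodimer at paired half-sites in promoters and enhancers, and it acts with other liver factors such as the FOXA and C/EBP proteins to keep genes for secreted proteins, lipoprotein assembly, bile acid synthesis and drug metabolism active. Loss of HNF4A in hepatocytes is known to lower many of these genes and to cause lipid to build up in the liver.

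Hnf4a transcript (ENSMUSG00000017950, chr2:163506808-163572910 on GRCm38, plus strand, protein-coding) was measured first, as the check of the labels. Its level was 108, 98.8 and 138 FPKM (fragments scaled to gene length and to library depth) in KO HFD 1 to 3 and 133, 116 and 120.2 FPKM in WT HFD 1 to 3. The groups overlapped, and 1 library labelled KO had the highest value of the 6. The means were 115 ± 20.5 and 123 ± 8.95 FPKM (SD, n = 3 each), with an exact two-sided permutation p of 0.6, where 3 against 3 cannot go below 0.1. The log2 difference −0.11, SE 0.17 on the log2(FPKM + 1) scale used for all tests had an adjusted p = 0.819 (limma, Benjamini-Hochberg). The transcript thus did not follow the genotype labels. A value over the full gene also counts exons that a deletion would leave in place, and the labels do not say which exons are deleted. Every direction below compares a KO label with a WT label.

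Depth was similar, with 17485165 to 19168629 reads on genes in the 6 libraries. The labelled tissue held its defining transcripts in all 6: Alb, the main plasma protein, stood at 12811 to 21127 FPKM in KO HFD and 29905 to 41503 FPKM in WT HFD. One of the KO libraries stood apart. In KO HFD 1, 114 genes were at 2 FPKM or more and at least 5 times as high as in each of the other 5 libraries, against 0 to 18 genes by the same rule in those 5. Examples are Acot1, a peroxisome-proliferator-induced thioesterase (319, 3.68 and 5.85 FPKM in KO HFD 1 to 3, 3.26 to 10.97 in WT HFD), Mogat1, a monoacylglycerol acyltransferase (37.3, 1.23 and 0.277, and 0.213 to 0.648), Hamp2, a hepcidin (1622, 59.5 and 9.33, and 0.911 to 41.1), and Cyp17a1, a steroid hydroxylase (20.8, 0.891 and 0.811, and 0.576 to 1.03). Of the 114 genes, 109 were above the other 5 HFD libraries in the library labelled WT chow 2 as well, against 14 to 47 of them in each of the other 5 chow libraries. The ratio of WT chow 2 to KO HFD 1, taken gene by gene over the 114, had a median of 1.74 and ran from 0.00733 to 11.9. Among the chow libraries, 2 went against their label as liver of the same kind: Alb was 11.9 FPKM in WT chow 3 and 7604 FPKM in WT chow 2, against 26888 FPKM in WT chow 1. WT chow 3 also held Ucp1, the uncoupling protein of brown fat, at 2339 FPKM, where no other library passed 3.20 FPKM. That value was in WT HFD 2, a library of the comparison. WT HFD 2 also held Adipoq, an adipocyte marker, at 3.50 FPKM, against 0 in the other 5 HFD libraries. This choice of genes and libraries was made from their values.

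The high fat diet comparison gave 19 genes higher in KO HFD and 0 genes lower, of 11902 tested (0.16% and 0%). The 19 were digestive enzymes and secretory products of the exocrine pancreas and, with Defa22 and Reg3b, 2 products of the gut lining. Their levels were low: together they made up 129.9, 80.5 and 78.7 FPKM in KO HFD 1 to 3, against 0.659 to 0.851 FPKM in WT HFD. Of the 19, 17 had no read in any WT HFD library and passed the filter of a mean of 0.5 FPKM only through their KO HFD values. All 19 had every KO HFD library above every WT HFD library, which 7.57% of all genes tested did. The same values chose the 19, so nothing is read from this count. The log2 differences reached 4.62, with adjusted p from 0.00165 to 0.0423 (limma). With no adjustment, 501 genes were higher (4.21%) and 826 lower (6.94%) at a p under 0.05, and limma-voom on the reads behind the values called 14 of the 19 and 0 lower. In bulk tissue, more cells of a type, more RNA per cell and RNA carried over from a neighbouring tissue or another sample cannot be told apart. None of these was tested.

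The serine proteases had the highest values. Ctrb1, chymotrypsinogen B, stood at 34.3, 18.5 and 20.6 FPKM in KO HFD 1 to 3 and at 0, 0 and 0 in WT HFD. It was at least 391-fold higher (log2 difference 4.62, SE 0.229, adjusted p = 0.00165, limma). The bound sets the empty group at a floor of 3 reads over its 3 libraries, here and below. The trypsinogens, zymogens of trypsin, followed. Prss2 was at 11.03, 7.36 and 7.44 FPKM in KO HFD and without reads in WT HFD, which puts it at least 127-fold higher (log2 difference 3.24, limma adjusted p = 0.00166). Try4 was at 11.1, 8.47 and 5.23 and Try5 at 7.51, 7.03 and 4.67 FPKM, again with no read in WT HFD, and both passed the test (log2 differences 3.16 and 2.87, limma adjusted p = 0.00685 and 0.00293). The longest protein-coding transcripts of Try4 and Try5 are 97.1% identical, and each is 87.4 to 88.6% identical to that of Prss2, so the authors' counting could have split or shared their reads. The elastases Cela3b (8.02, 3.85 and 4.35 FPKM, with 0, 0 and 0 in WT HFD) and Cela2a (4.85, 3.17 and 3.60, with 0.733, 0.481 and 0.531) and the chymotrypsin-like protease Ctrl (5.34, 2.47 and 2.998, with 0.118, 0.193 and 0.128) also rose (adjusted p = 0.014, 0.0279 and 0.0404, limma). Cela2a and Ctrl were the only genes of the 19 with reads in WT HFD, and for them the ratio of means was 6.65 and 24.6.

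Lipid-digesting and other enzymes formed the next group. Pnlip, pancreatic lipase, was at 7.91, 3.72 and 5.26 FPKM in KO HFD 1 to 3 and Clps, its cofactor colipase, at 5.42, 4.27 and 3.71 FPKM, both without a read in WT HFD (log2 differences 2.68 and 2.44, adjusted p = 0.0122 and 0.00293, limma). Cel, the bile-salt-activated lipase, was at 3.42, 2.05 and 1.87 FPKM. The carboxypeptidases Cpa1 and Cpb1 were at 3.10, 2.27 and 2.93 and at 2.48, 1.63 and 1.71 FPKM, and the ribonuclease Rnase1 at 3.87, 2.47 and 1.87 FPKM. These 4 genes had no read in WT HFD either and rose by 1.54 to 1.91 on the log2 scale (adjusted p = 0.0292, 0.00695, 0.0279 and 0.0292 in that order, limma). Sycn, a zymogen granule protein, was at 4.06, 3.09 and 1.93 FPKM (adjusted p = 0.029), and the predicted trypsinogen gene 2210010C04Rik at 3.86, 2.29 and 2.22 FPKM (adjusted p = 0.0254), each against 0 in WT HFD.

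Secreted lectins and a defensin made up the rest. Reg1, Reg2 and Reg3b, C-type lectins of the regenerating family made by pancreas and gut, in KO HFD 1 to 3 had 3.87, 2.04 and 2.21 FPKM (Reg1), 1.91, 1.96 and 1.64 FPKM (Reg2) and 3.92, 1.86 and 2.16 FPKM (Reg3b), with log2 differences 1.86, 1.502 and 1.83 and limma adjusted p = 0.0292, 0.014 and 0.0423. Defa22, an alpha-defensin of Paneth cells in the small intestine, was at 3.95, 1.99 and 2.30 FPKM (log2 difference 1.87, adjusted p = 0.0292). All 4 had no read in WT HFD. In 18 of the 19 genes KO HFD 1 was the highest of the 3 KO libraries, Reg2 being the exception. Without KO HFD 1 the fit called 22 genes, with all 19 among them. Without KO HFD 2 it called 6, without KO HFD 3 6, without WT HFD 1 4, without WT HFD 2 4 and without WT HFD 3 6, and these were always genes of the 19. One gene, the clone-named Gm10036, was lower without WT HFD 3. In each of these fits all genes of the 19 kept their direction.

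**Figure D1:**
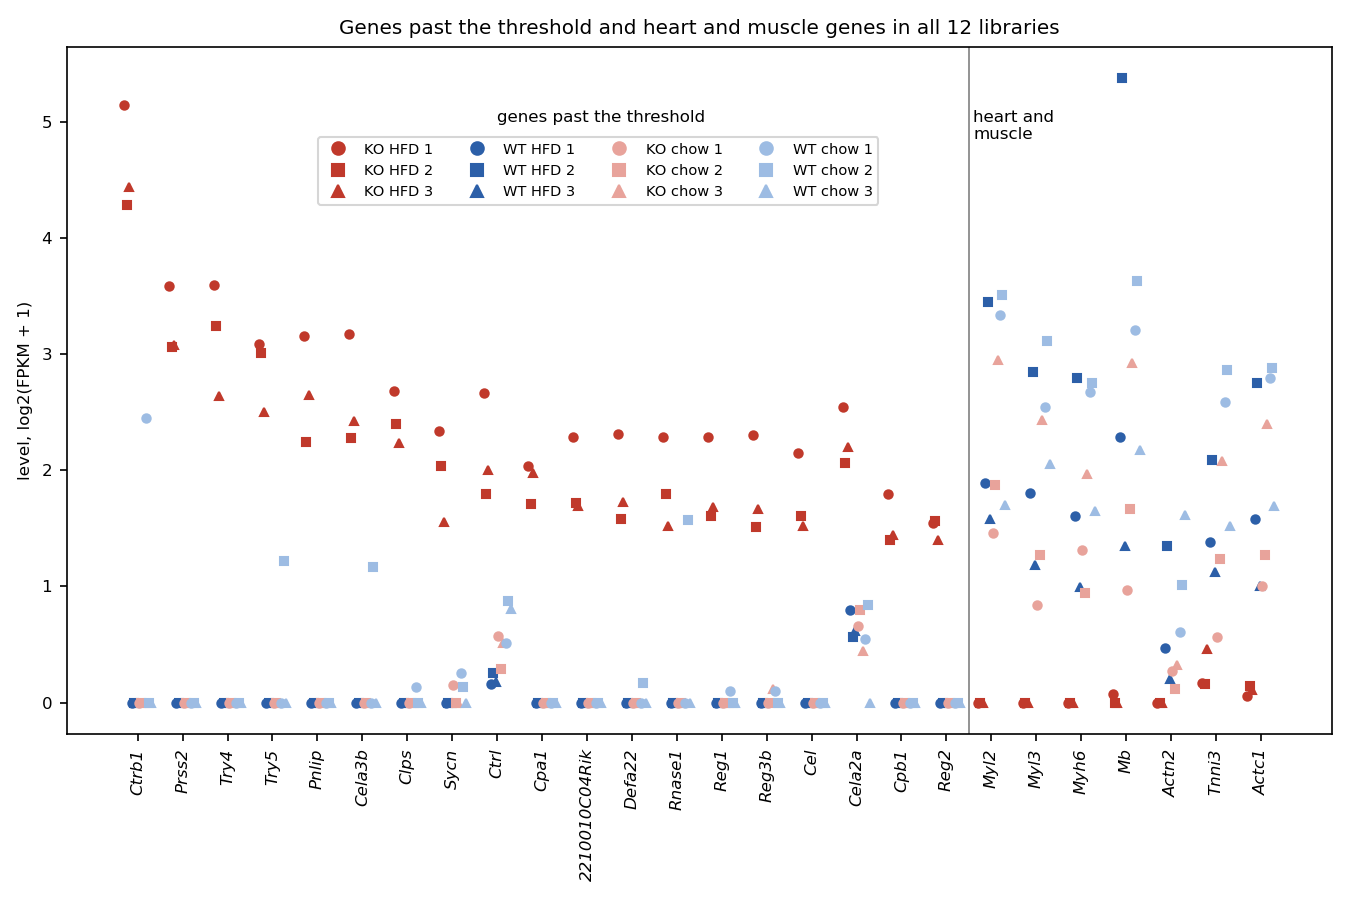
Level of each gene past the threshold, and of 7 heart and muscle genes, as log2(FPKM + 1) in each of the 12 libraries (colours give the group, symbols the replicate). The 3 KO HFD libraries sit above the WT HFD libraries in all 19 genes on the left, and below them in the 7 genes on the right, of which none passed the threshold.

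Chow libraries held few of these reads. Reads in the 19 genes numbered 2333, 1504 and 1397 in KO HFD 1 to 3, 12 to 17 in WT HFD, 13 to 20 in KO chow and 11 to 111 in WT chow. The KO HFD counts were 0.0129%, 0.00785% and 0.00791% of the reads of their libraries. In KO chow 15 of the 19 genes had no read, and in WT chow 8 had none. The chow values above 1 FPKM were in WT chow 1, with Ctrb1 at 4.47 FPKM, and in WT chow 2, with Rnase1 at 1.97, Try5 at 1.33 and Cela3b at 1.25 FPKM.

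The pancreatic promoters are shown because these genes moved together and their promoters are known to share a bipartite site of the acinar factor PTF1, an E-box with the letters CACCTG and a TTTCCC box. RefSeq promoters on GRCm38.p6 matched 17 of the 19 genes. The 250 bases before the start are printed 5′ to 3′ on the gene's strand for Ctrb1 (chr8:111691011-111691260, minus strand), Prss2 (chr6:41521526-41521775, plus strand), Cel (chr2:28563404-28563653, minus strand) and Cela2a (chr4:141826006-141826255, minus strand). Capitals mark the letters CACCTG or TTTCCC on either strand and, in Cela2a, the HNF4 letters CAAAGTCCA on the opposite strand, whose last base overlaps the TTTCCC box. The 4 genes and both pancreatic motifs were chosen after the values were seen.
Ctrb1: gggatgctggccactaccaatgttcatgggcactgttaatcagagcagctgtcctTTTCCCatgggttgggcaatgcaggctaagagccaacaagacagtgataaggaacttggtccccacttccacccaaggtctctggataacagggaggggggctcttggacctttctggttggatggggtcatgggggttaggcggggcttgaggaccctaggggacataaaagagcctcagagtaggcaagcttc
Prss2: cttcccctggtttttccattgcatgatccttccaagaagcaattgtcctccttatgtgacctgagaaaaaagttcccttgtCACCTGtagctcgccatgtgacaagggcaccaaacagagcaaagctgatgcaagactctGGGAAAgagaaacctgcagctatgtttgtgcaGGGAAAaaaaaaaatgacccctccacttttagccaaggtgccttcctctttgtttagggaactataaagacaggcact
Cel: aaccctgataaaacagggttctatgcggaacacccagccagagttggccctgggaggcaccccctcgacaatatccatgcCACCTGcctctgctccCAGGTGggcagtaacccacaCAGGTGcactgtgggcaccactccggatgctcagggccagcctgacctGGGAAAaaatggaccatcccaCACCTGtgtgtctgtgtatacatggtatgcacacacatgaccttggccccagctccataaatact
Cela2a: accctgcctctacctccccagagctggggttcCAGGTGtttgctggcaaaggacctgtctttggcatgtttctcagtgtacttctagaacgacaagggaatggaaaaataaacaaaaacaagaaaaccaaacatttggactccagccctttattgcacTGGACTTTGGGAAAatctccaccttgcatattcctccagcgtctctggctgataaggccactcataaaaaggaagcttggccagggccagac
The most abundant gene, Ctrb1, held TTTCCC and no CACCTG in this window. Prss2 held CACCTG at 169 to 164 bases before the start and TTTCCC, read on the opposite strand, at 110 to 105 and at 78 to 73 bases before it. Cel held CACCTG 4 times. Over the 17 promoters, 10 held CACCTG (58.8%, against 17.2% of all 32851 promoters of this length), 8 held TTTCCC (47.1%, against 21.9%) and 4 held both (Cel, Cela2a, Prss2 and Reg3b; 23.5%, against 3.61%). Of 26 promoters of the acinar marker list, 14 held CACCTG (53.8%). Holding both means anywhere in the 250 bases, with no distance set between the motifs. In Cela2a, for example, CACCTG stood at 218 to 213 and TTTCCC at 84 to 79 bases before the start. Other forms of an E-box were not searched, so the counts do not show which promoters hold the bipartite site. A match describes the letters and is not a measured site.

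The list of pancreatic acinar markers held 33 genes, of which 20 passed the filter of a mean of 0.5 FPKM over the 6 libraries and 13 did not. All tested members but Cela1 and Cela2a had a WT HFD mean under 0.5 FPKM and passed only through their KO HFD values. The counts and the median over tested members thus describe and do not support. Over all 33 genes the mean was higher in KO HFD for 30, lower for 1 and without a read in either group for 2. Of the 20 tested, 15 were past the threshold and the median log2 difference was 1.93, beside −0.03 over all genes tested. The members not past it were Zg16 (3.73, 1.80 and 1.16 against 0, 0 and 0 FPKM, adjusted p = 0.247), Spink3, a secreted trypsin inhibitor (2.35, 3.46 and 1.61 against 0, 0.678 and 0.808, 0.425), Prss3 (2.95, 1.55 and 0 against 0, 0 and 0, 0.441), Pnliprp1 (17.95, 1.58 and 1.36 against 0.0323, 0.0707 and 0.14, 0.425) and Cela1. Pnliprp1 was highest in KO HFD 1, above WT HFD in all 3 KO HFD libraries, and at 67.1 FPKM in WT chow 2. Cela1, an elastase, was at 66.9, 73.7 and 63.3 FPKM in KO HFD and 75.3, 83.3 and 61.8 FPKM in WT HFD, and at 39.2 to 67.5 FPKM in KO chow, the most abundant member and the one with a lower mean. Not all acinar genes had reads counted. Prss1 and Amy2a5, an amylase, had none in any of the 12 libraries, and Amy2b had 1 read in the 6. Their identity to related genes was not measured, so reads shared with such genes and left uncounted cannot be told from absence. The acinar transcription factors Ptf1a and Rbpjl had 1 and 3 reads in KO HFD and 0 and 2 in WT HFD, and Bhlha15 was at 0.442, 0.0299 and 0.0648 FPKM.

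Markers of the islets and ducts were near 0. Ins2, an insulin gene, was at 0.284, 0.0895 and 0.194 FPKM in KO HFD 1 to 3 (6 reads) and had no read in the other 9 libraries. Ins1 had 1 read and Gcg 3 in KO HFD, with none in WT HFD. Of the 12 genes on that list 1 was tested, Tff2, a trefoil peptide, at 13.4, 0.536 and 0.194 FPKM in KO HFD 1 to 3 against 0.269, 0.196 and 0.0974 in WT HFD (adjusted p = 0.58, limma). It was high in KO HFD 1 alone.

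The Paneth cell and intestinal list held 35 genes, 12 of them tested, with 33 higher by mean in KO HFD, 1 lower and 1 without a read. Defa22 and Reg3b passed the threshold (0.16% of all genes tested did so in this direction). Of the 12, 7 had every KO HFD library above every WT HFD library (7.57% of all genes tested did), and the median log2 difference was 1.34. Those 7 passed the filter only through their KO HFD values, so nothing is read from this count and median. The 5 others without overlap were Defa24 (8.56, 2.99 and 2.84 FPKM against 0, 0 and 0, adjusted p = 0.0993), Gm15284 (3.46, 1.84 and 1.42 against 0, 0 and 0, 0.0993), Defa21 (5.15, 2.12 and 1.76 against 0, 0 and 0, 0.15), Defa5 (3.37, 1.11 and 0.753 against 0, 0 and 0, 0.425) and Lyz1, the Paneth cell lysozyme (3.62, 1.69 and 1.08 against 0.0414, 0.633 and 0.36, 0.425). The transcripts of Defa21 and Defa22 are 99.3% identical, so reads of these genes could have been split between them. Fabp2, the intestinal fatty acid binding protein, was the most abundant member at 65.04 to 133 FPKM in KO HFD and 79.6 to 109 in WT HFD, and it overlapped. Spink4 was at 10.7, 0.394 and 0.143 FPKM in KO HFD, high in KO HFD 1 alone. The summed level of the acinar list was 139.6 to 213 FPKM in KO HFD, against 32.3 to 101 over the 9 remaining libraries, with Cela1 included. That of the intestinal list was 118 to 275 FPKM against 23.5 to 269 FPKM, which overlapped.

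Presence or absence of reads was also counted. With at least 3 reads in each KO HFD library and at most 1 read over the other 9 libraries together, 18 genes were present in KO HFD alone, and 11 of them are among the 19 named above. The other 7 included the ileal bile acid binding protein Fabp6 (7.72, 0.871 and 2.25 FPKM), the brush-border enzyme sucrase-isomaltase, Sis (0.435, 0.123 and 0.238), the lectin Itln1 (0.822, 0.549 and 0.447), the gut peptide Guca2b (0.396, 0.449 and 0.325), Defa2 and Gm14851. By the same rule WT HFD had 0 such genes, KO chow 0 and WT chow 1. This rule was chosen after the values were seen.

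Genes of heart muscle showed the opposite order, with low levels throughout and no gene past the threshold. Myl2, the regulatory light chain of ventricular myosin, had no read in KO HFD and stood at 2.71, 9.91 and 1.98 FPKM in WT HFD 1 to 3, at 1.74, 2.66 and 6.73 in KO chow and at 9.11, 10.4 and 2.25 in WT chow. It was at least 78.1-fold lower in KO HFD than in WT HFD (log2 difference −2.30, SE 0.45, adjusted p = 0.329, limma). Myh6, the cardiac alpha-myosin heavy chain, had no read in KO HFD and 2.04, 5.92 and 0.992 FPKM in WT HFD (adjusted p = 0.425). Myl3, a myosin light chain, likewise had none against 2.49, 6.19 and 1.27 FPKM (adjusted p = 0.341). Mb, myoglobin, was at 0.0499, 0 and 0 FPKM against 3.88, 40.4 and 1.54 FPKM (0.425), and the troponin Tnni3 at 0.121, 0.114 and 0.373 against 1.61, 3.26 and 1.18 (0.411). Myl2, Myl3 and Myh6 thus had reads in each of the 9 other libraries, WT chow 3 included, and none in KO HFD. The part of heart or muscle RNA in the comparison was not tested. Of the 25 listed genes 24 had the lower mean in KO HFD. Of the 18 tested, 12 had every KO HFD library below every WT HFD library, beside 12.5% of all genes tested, and the median log2 difference was −1.23. Members such as Myl2, Myl3, Myh6, Mb, Acta1 and Ckm passed the filter only through their WT HFD values and so had to differ, and nothing is read from this count and median. It was −0.39 without WT HFD 2, which also held skeletal muscle transcripts: Acta1, skeletal actin, was 39.2 FPKM there and 0.109 and 0.0794 FPKM in WT HFD 1 and 3. The summed level of the list was 7.09 to 9.01 FPKM in KO HFD, against 14.7 to 218 FPKM over the 9 remaining libraries. With at most 1 read over KO HFD and at least 3 in each other library, 11 genes were absent from KO HFD alone (Myh6, Myl2, Mb, Myl3, Flnc, Actn2, Ryr2, Ckmt2, Hrc, Xirp2 and Myoz2, most of them genes of the sarcomere of striated muscle), against 0 by the same rule for WT HFD, 0 for KO chow and 2 for WT chow.

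**Figure D2:**
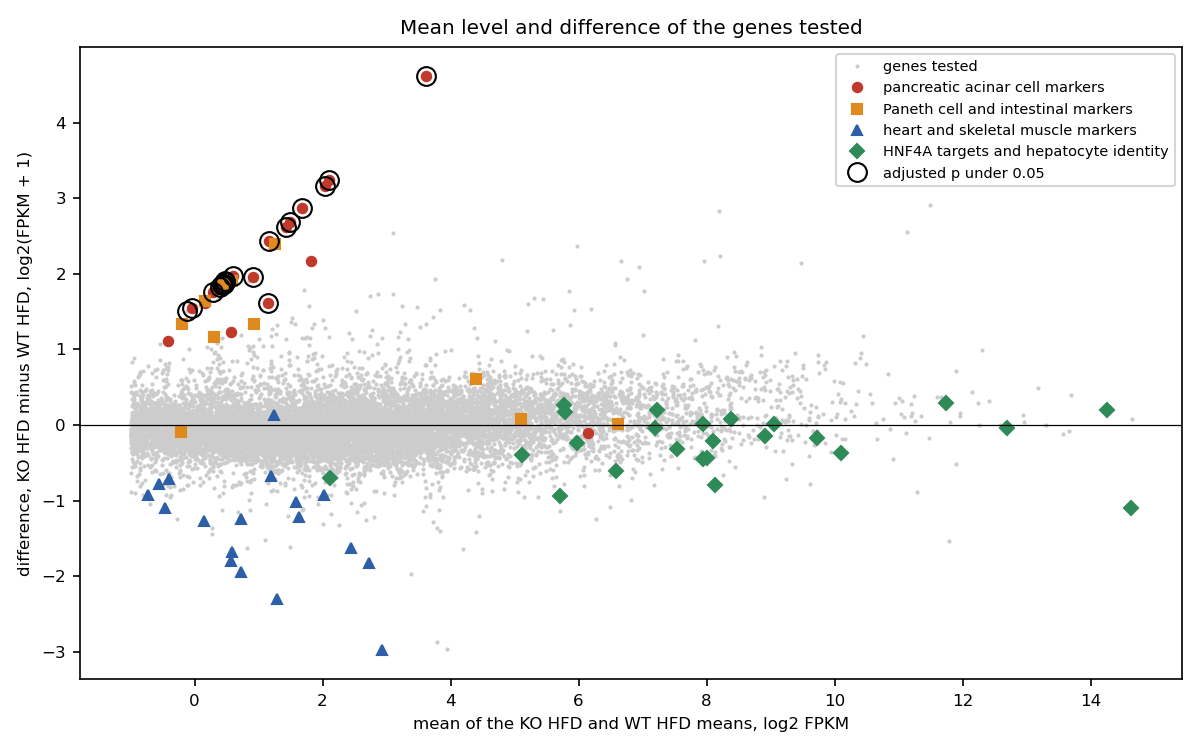
Each gene tested by its mean level (log2 FPKM, x axis) and its KO HFD minus WT HFD difference on the log2(FPKM + 1) scale (y axis), with 4 gene lists coloured and the 19 genes past the threshold ringed. The ringed genes lie at low levels with differences up to 4.62, and the heart and muscle markers lie below 0 but for 1.

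No gene was lower at the threshold, and of the 10 genes lower by mean with the smallest p, 9 are given as values, with KO HFD 1 to 3 before WT HFD 1 to 3, as in the paragraphs that follow. Malat1, a nuclear long noncoding RNA, was at 28.1, 35.7 and 32.9 FPKM in KO HFD 1 to 3 and at 66.5, 76.7 and 72.7 FPKM in WT HFD 1 to 3 (log2 difference −1.14, SE 0.145, adjusted p = 0.0547, limma). The groups did not overlap, and the difference was −0.93 when genes were centred by length. A1cf, the RNA-binding partner of the enzyme that edits apolipoprotein B mRNA, was at 6.37, 8.84 and 6.13 against 17.3, 16.9 and 15.6 FPKM (adjusted p = 0.0993). Yam1, annotated as a lincRNA, was at 1585, 1669.9 and 2266 against 5016, 4868 and 5928 FPKM (adjusted p = 0.13). Within KO chow alone it ran from 1449 to 7420 FPKM. Il6ra, the receptor chain for interleukin-6, was at 2.69, 4.60 and 4.05 against 7.33, 11.3 and 11.8 FPKM (adjusted p = 0.306). Ndst1, a heparan sulfate sulfotransferase, was at 5.77, 9.78 and 7.26 against 15.6, 16.9 and 18.00 FPKM (adjusted p = 0.247). The others given here were Pdpr, a regulator of pyruvate dehydrogenase phosphatase (0.603, 0.729 and 0.608 against 1.85, 1.95 and 2.41), Mfsd4 (0.956, 1.22 and 0.792 against 2.40, 2.52 and 3.16), Zfp871 (0.496, 0.929 and 0.366 against 2.03, 2.20 and 1.82) and Itpka, an inositol trisphosphate kinase (1.18, 1.69 and 1.40 against 4.17, 3.05 and 3.10). Across the 10, every KO HFD library was below every WT HFD library, as the rule required. In KO chow and WT chow 1 Malat1 was at 67.9 to 111 and 65.97 FPKM and A1cf at 13.3 to 33.9 and 13.3 FPKM, above the KO HFD libraries. In WT chow 2 they were at 22.6 and 3.70 FPKM, below them. Ndst1, Pdpr, Mfsd4 and Zfp871 were also above the KO HFD libraries in KO chow and WT chow 1. Yam1, Il6ra and Itpka were not in every one of these chow libraries. Yam1 was at 1449 FPKM in KO chow 2, below the KO HFD libraries. In WT chow 1 Il6ra was at 4.57 and Itpka at 1.38 FPKM, within the KO HFD range.

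Among the liver transcription factors, 0 of 22 tested passed the threshold, 7 had every KO HFD library below every WT HFD library (31.8%, beside 12.5%), and 0 were above. Among the 7 were Ppara, Nr1i3, Nr5a2, Nr1h4, Rxra and Onecut2. Ppara, the fatty acid receptor, was at 5.91, 19.7 and 9.94 against 25.5, 28.9 and 36.2 FPKM (adjusted p = 0.425), and Nr1i3, the receptor CAR, at 14.96, 41.6 and 31.3 against 57.7, 55.9 and 46.7 FPKM (0.425). Nr5a2 stood at 6.86, 7.07 and 5.39 against 8.79, 9.80 and 8.16, the bile acid receptor Nr1h4 at 45.4, 59.6 and 57.4 against 71.7, 60.5 and 70.5, and the partner receptor Rxra at 88.2, 89.3 and 95.3 against 116, 101 and 99.4 FPKM. Cebpa was the most abundant member, at 193 to 252 against 209 to 327 FPKM, and overlapped. The list's median log2 difference was −0.12, and the medians of KO HFD 1 to 3 against the WT HFD mean were −0.23, −0.23 and −0.24.

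The HNF4A target and hepatocyte identity list also had 0 of 24 members past the threshold. Alb was the most abundant, at 12811, 15115 and 21127 FPKM in KO HFD 1 to 3 and 31849, 29905 and 41503 FPKM in WT HFD 1 to 3, without overlap (log2 difference −1.09, SE 0.323, adjusted p = 0.425, limma). Slco1b2, an uptake transporter of hepatocytes, was at 124, 286 and 229 against 377, 343 and 331 FPKM (adjusted p = 0.427), lowest in KO HFD 1. Apob, the structural protein of very-low-density lipoprotein, was at 142, 258 and 234 against 259.5, 269 and 315, Mttp, which loads lipid onto it, at 23.9, 32.3 and 33.5 against 36.2, 38.2 and 43.2, and the carboxylesterase Ces3a at 772, 1142 and 993 against 1248, 1143 and 1311 FPKM (adjusted p = 0.52, 0.454 and 0.535). These 5 were among 6 of 24 without overlap (25%, beside 12.5%), all lower. Pklr, liver pyruvate kinase, was at 30.8, 45.9 and 27.9 against 41.97, 67.2 and 102 FPKM and overlapped (adjusted p = 0.425). The list's median log2 difference was −0.19, with −0.68, 0.05 and −0.02 in KO HFD 1 to 3 against the WT HFD mean, and 0.02 without KO HFD 1. The lower median was thus that of KO HFD 1.

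**Figure D3:**
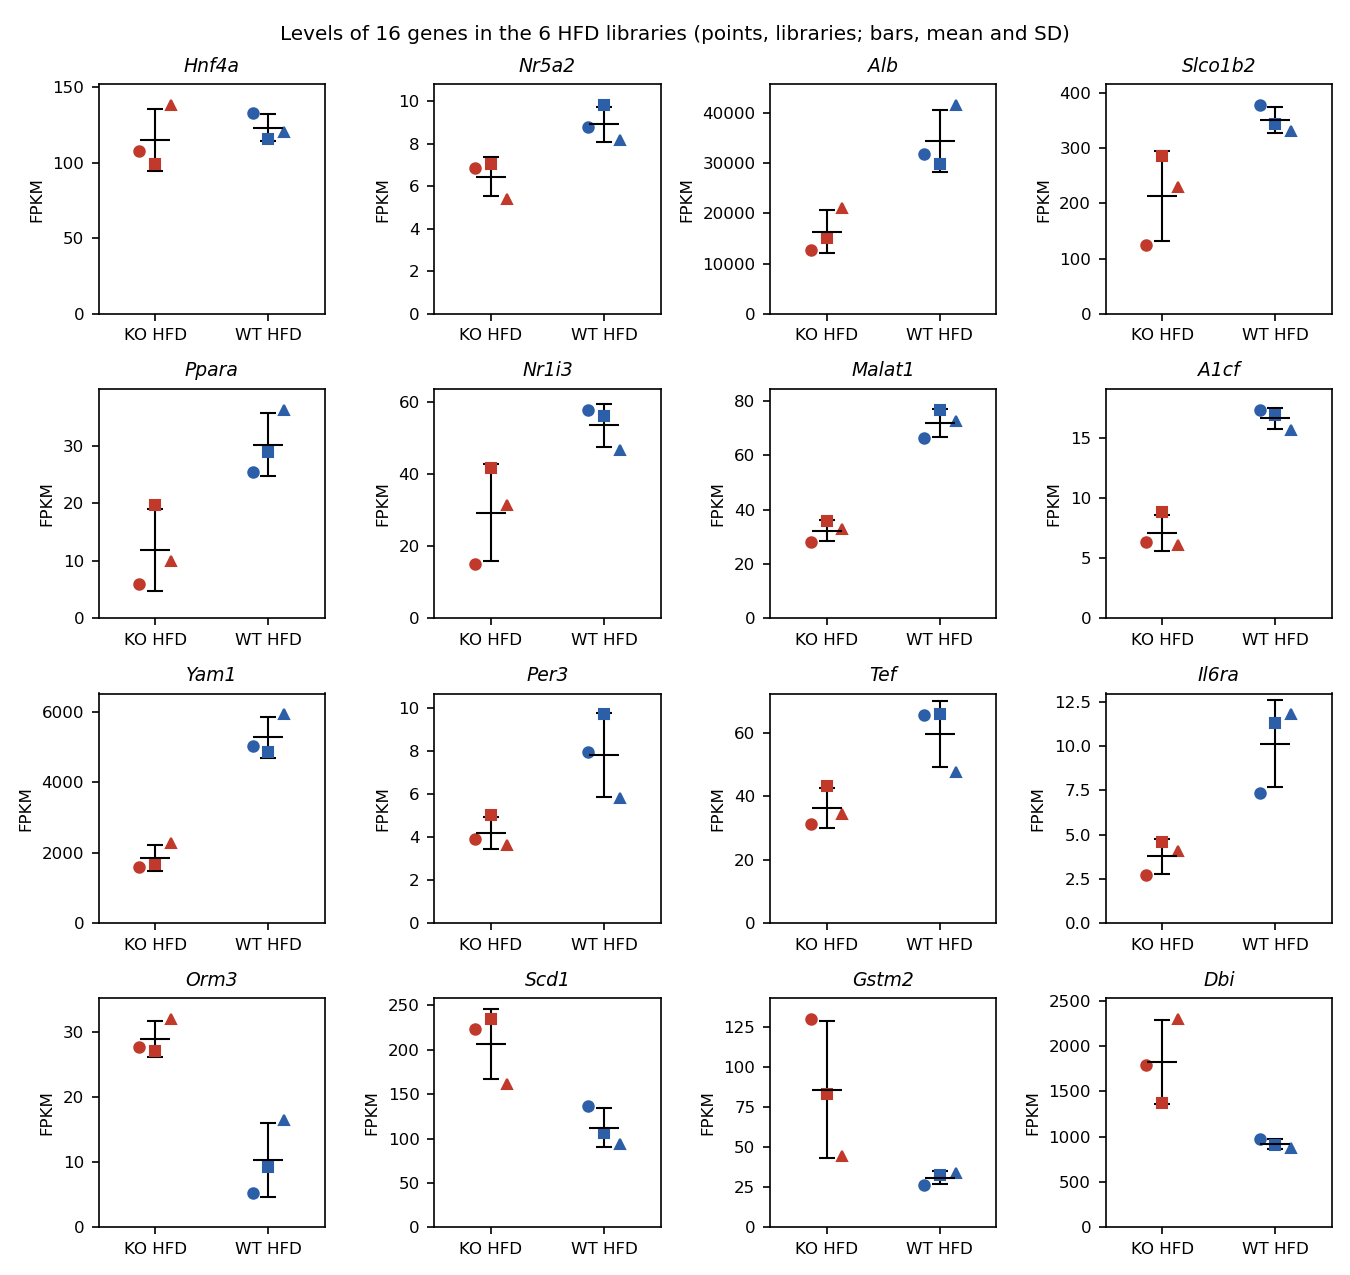
FPKM of 16 genes in the 6 HFD libraries (points, with symbols for the replicate; bars, mean and SD, n = 3). Hnf4a overlaps between the groups, the 11 genes from Nr5a2 to Il6ra have all KO HFD libraries below all WT HFD libraries, and Orm3, Scd1, Gstm2 and Dbi have them above.

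The HNF4 letters CAAAGTCCA, CAAAGTTCA and CAAAGGTCA, searched on both strands of the same 250 bases, stood in 1.14% of all promoters and in 1.18% of the 11115 promoters of genes tested. They stood in 11 of 416 promoters of genes higher at an unadjusted p under 0.05 (2.64%) and in 5 of 754 of those lower (0.663%). Among the 17 promoters of genes past the threshold 2 held them, Cela2a and Cpa1, and among the 20 promoters of the hepatocyte list 1 did, that of Cyp8b1, the sterol 12-alpha-hydroxylase. Cyp8b1 itself was at 26.1, 85.9 and 60.1 FPKM in KO HFD and 18.8, 72.5 and 68.5 in WT HFD and overlapped.

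Bile acid, drug and glutathione genes had 0 members past the threshold. In the bile acid list (22 tested, median log2 difference −0.15) the export pump Abcc2 was at 33.6, 45.6 and 28.1 against 58.4, 59.4 and 45.8 FPKM (adjusted p = 0.425), 1 of 3 members below without overlap (13.6%, beside 12.5% of all genes tested), with 1 above (4.55%, beside 7.57%). Its most abundant member, the bile acid ligase Slc27a5, stood at 166 to 301 against 253 to 368 FPKM. Of the 24 P450 and xenobiotic genes (median −0.10, and 0.11 without KO HFD 1) 2 were above without overlap (8.33%, beside 7.57%). One was Cyp2a4, a steroid hydroxylase, at 11.3, 32.8 and 3.46 against 0.274, 1.07 and 2.62 FPKM (adjusted p = 0.425). The most abundant, Cyp2e1, stood at 2073 to 3769 against 2967 to 6016 FPKM. In the glutathione and NRF2 list (17 tested, median 0.31, and −0.02 without KO HFD 2), 3 glutathione transferases of the mu class were above without overlap (17.6% of the list, beside 7.57% of all genes tested): Gstm1 at 1441, 2704 and 1168 against 1029.8, 1140.2 and 618, Gstm2 at 130.1, 83.4 and 44.4 against 26.3, 32.7 and 33.9, and Gstm3 at 52.3, 248 and 50.3 against 21.6, 27.8 and 41.9 FPKM (adjusted p = 0.451, 0.425 and 0.429). The tested members of this list are short, with a median of 1311 bases. Of all genes tested of 12 to 1502 bases, 21.8% were above without overlap, so the list's share is no higher. Related transferases can share reads. Gstp1, the most abundant, stood at 2034 to 3087 against 1619 to 3606 FPKM.

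Lipid genes had 0 members past the threshold. Scd1, the stearoyl-CoA desaturase, was at 223, 235 and 161 FPKM in KO HFD and 137, 107 and 93.4 in WT HFD without overlap (adjusted p = 0.425), in a synthesis list of 22 tested genes with a median of 0.02 (−0.09 under TPM and −0.03 under quantile normalization). Its most abundant member, Dgat2, a triglyceride-forming acyltransferase, stood at 218 to 260.4 against 285 to 353 FPKM, below without overlap. Dbi, which binds acyl-CoA, was at 1788, 1377 and 2302 against 977, 906 and 874 FPKM, and Hsd17b13, a lipid droplet enzyme, at 342, 417 and 183 against 136, 116 and 158 FPKM, both without overlap (adjusted p = 0.425 and 0.425; named after their values were seen). The fatty acid oxidation list had medians of 0.57, −0.02 and −0.27 in KO HFD 1 to 3 against the WT HFD mean, the lipid droplet list 0.88, 0.13 and −0.30, and the cholesterol list −0.13, −0.13 and 0.61. KO HFD 1 was thus high in the first 2 and KO HFD 3 in the third. The most abundant members of the lipid droplet and cholesterol lists were Fabp1, the liver fatty acid binding protein (7122 to 17670.3 against 6485 to 8435 FPKM), and Ebp, a sterol isomerase (122 to 149 against 95.2 to 121, above without overlap). Of 22 apolipoprotein and assembly genes 4 were below without overlap (18.2%, beside 12.5% of all genes tested): Apob, Mttp, the lipoprotein receptor Lrp1 and the cholesterol exporter Abca1 (9.20, 9.51 and 6.17 against 12.6, 11.9 and 11.6 FPKM, adjusted p = 0.425). Apob and Abca1 are long, at 13934 and 10262 bases, and 32.5% of all genes tested of 4641 bases or more were below without overlap. Apoe, the most abundant of the list, stood at 24836 to 29234 against 24809 to 24970.5 FPKM. The glucose list (23 tested, median −0.12) held 2 members without overlap, both below (8.70%, beside 12.5% of all genes tested). The urea cycle and amino acid list (28 tested, 0.04, turning to −0.08 under TPM, −0.22 under quantile normalization and −0.02 when centred by length) held 0. Fbp1 (754 to 1011 against 677 to 1055 FPKM) and Ass1 (2165 to 2662 against 1678 to 3219.8) were the most abundant of these lists.

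Of 27 acute phase genes 25 had a positive log2 difference, where 5482 of all 11902 genes did, and 0 passed. The median was 0.72, and 0.58 when centred by length. Against the WT HFD mean the medians overlapped, at 0.37, 0.31 and 1.08 in KO HFD 1 to 3 and −0.29, −0.17 and 0.48 in WT HFD 1 to 3. The 1 member above without overlap (3.70%, beside 7.57%) was Orm3, an orosomucoid, at 27.8, 27.1 and 32.1 against 5.28, 9.32 and 16.5 FPKM (adjusted p = 0.425). Saa1, serum amyloid A, was at 374, 576 and 2429.5 against 47.5, 186 and 675 FPKM, highest in replicate 3 of each group. Lcn2, lipocalin-2, was at 83.6, 91.2 and 87.4 against 2.44, 13.5 and 99.2 FPKM, highest in WT HFD 3. Hpx, hemopexin, the most abundant, stood at 3677 to 6903 against 3080.4 to 6752 FPKM. In the complement list (21 tested, median −0.06) the lectin-pathway proteases Masp1 (4.41, 9.93 and 10.2 against 13.4, 14.6 and 19.98 FPKM, adjusted p = 0.425) and Masp2 (31.9, 41.6 and 44.1 against 50.6, 56.4 and 50.4, 0.429) were below without overlap, as was coagulation factor F5 (28.2, 50.7 and 38.1 against 59.2, 59.3 and 66.6, 0.425) in the coagulation list (21 tested, median −0.02, turning to 0.03 under median-of-ratios scaling). C3 and Fgb were the most abundant of these lists, at 859.7 to 1602 against 1074 to 1207 and at 1663 to 4257 against 1657 to 2312 FPKM.

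Clock genes were lower by mean, with 0 of 19 past the threshold and a median of −0.43, −0.22 once genes were centred by length. Of the 19, 2 had a positive log2 difference and 6 had every KO HFD library below every WT HFD library (31.6%, beside 12.5%). The tested members are long, with a median of 4401 bases. Over all genes tested, 14.7% of those of 3347 to 4640 bases and 32.5% of those of 4641 bases or more were below without overlap. Among the 6 were the period genes Per2 (3.96, 4.77 and 3.50 against 5.67, 7.001 and 6.48 FPKM) and Per3 (3.89, 5.02 and 3.62 against 7.92, 9.69 and 5.78), the PAR-domain output factors Tef (31.1, 43.2 and 34.4 against 65.6, 65.8 and 47.5) and Hlf (6.40, 9.14 and 7.09 against 11.1, 10.1 and 12.6) and the deubiquitinase Usp2 (8.73, 16.9 and 14.2 against 21.00, 18.1 and 17.3), with adjusted p from 0.425 to 0.463 (limma). Dbp, the most abundant, stood at 72.5 to 81.4 against 66.97 to 100.3 FPKM and overlapped. The labels give no hour of collection.

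Other programmes had 0 members past the threshold. All 21 cell cycle genes tested had a positive log2 difference (median 0.30), none without overlap, with medians of 0.87, 0.39 and −0.31 in KO HFD 1 to 3, so KO HFD 3 lay below the WT HFD mean. Interferon-stimulated genes (21 tested, median 0.28), immediate early and heat shock genes (20, 0.36), unfolded protein response genes (23, 0.12) and fetal liver genes (16, 0.24) had 1, 1, 3 and 0 members above without overlap (4.76%, 5%, 13.04% and 0%, beside 7.57% of all genes tested). Sex-biased liver genes (19, 0.07, turning to −0.05 under TPM and −0.03 under quantile normalization) and genes of the mitochondrial genome (12, 0.13, turning to −0.15 when centred by length and −0.03 under quantile normalization) held 1 and 2 members above without overlap (5.26% and 16.7%, beside 7.57%). The mitochondrial list also held 2 below (16.7%, beside 12.5% of all genes tested). Its tested members are short, with a median of 870.5 bases. Of all genes tested of 12 to 1502 bases, 21.8% were above and 3.82% below without overlap. The most abundant members of these 7 lists were Pcna, Ifi27l2a, Hsp90aa1, Calr, Spp1, Mup3 and mt-Co1 at 10.97 to 16.98 against 12.9 to 14.2, 15.5 to 28.5 against 10.3 to 36.97, 42.1 to 47.5 against 25.3 to 43.5, 335 to 411 against 236 to 315, 9.36 to 23.4 against 10.2 to 12.9, 6765 to 9040.5 against 6082 to 9888, and 11435 to 13821 against 12207 to 15047 FPKM in KO HFD and WT HFD. Of these Calr, an endoplasmic reticulum chaperone, was above without overlap.

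Markers of the other cells of liver had 0 members past the threshold. Erythroid genes had 8 of 8 tested with a negative log2 difference (median −0.74) and 4 below without overlap, where 6420 of all 11902 genes were negative and 12.5% below without overlap. Among the 4 were the beta-globins Hbb-bs (527, 574 and 543 against 615, 828 and 1612 FPKM) and Hbb-bt (43.5, 58.6 and 55.4 against 73.99, 84.9 and 222), both highest in WT HFD 3. Sinusoidal endothelial genes had 19 of 19 negative (median −0.24), with 3 below without overlap (15.8%, beside 12.5%). Their median length was 3954 bases, and 14.7% of all genes tested of 3347 to 4640 bases were below without overlap. Their medians against the WT HFD mean overlapped, at −0.09, −0.25 and −0.44 in KO HFD 1 to 3 and 0.25, −0.11 and −0.14 in WT HFD 1 to 3. Stellate cell genes had 20 of 23 negative (median −0.21, and 0.03 without WT HFD 3). The median log2 differences of Kupffer cell (0.02, 16 tested, turning to −0.06 under TPM and −0.01 when centred by length), neutrophil (−0.06, 6), lymphocyte (0.23, 15, turning to −0.01 when centred by length), biliary (0.22, 11) and adipocyte lists (−0.25, 12) are given as descriptions. WT HFD 3 was highest in the macrophage and neutrophil lists, with medians of 0.81 and 1.41 against the WT HFD mean. The most abundant members were Clec4g, Dcn, Lyz2, Cd74, Krt8 and Car3 at 15.3 to 20.2 against 11.4 to 26.97, 44.3 to 64.8 against 53.1 to 62.5, 42.5 to 69.3 against 17.5 to 107, 69.8 to 87.5 against 51.4 to 80.6, 147 to 360.5 against 91.5 to 296, and 1138 to 2705 against 2754 to 3616 FPKM. Car3, carbonic anhydrase 3, is made by hepatocytes as well as by adipocytes, and it was below without overlap.

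**Figure D4:**
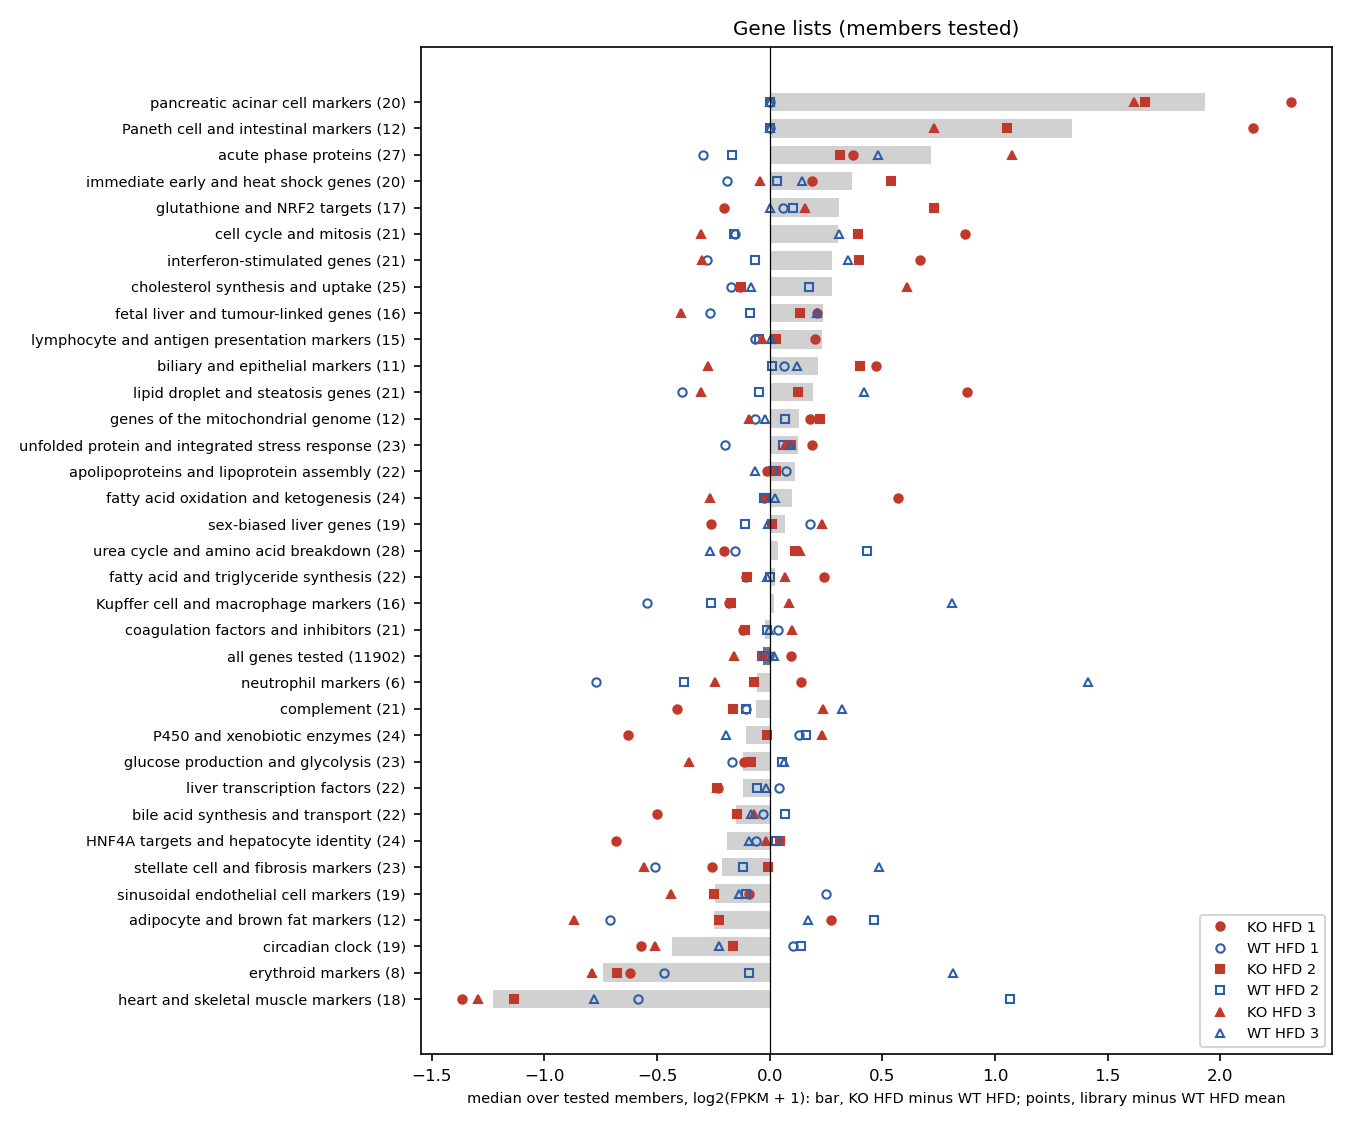
Median over the tested members of each gene list on the log2(FPKM + 1) scale: bars, KO HFD minus WT HFD; points, each library minus the WT HFD mean (number tested in brackets). The acinar and intestinal lists have the 3 KO HFD libraries at 0.73 to 2.31, and the heart and muscle list has them at −1.37 to −1.13, beside −0.78 to 1.07 in WT HFD.

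Gene length moved with the comparison across all genes. Genes tested were ranked by length and cut into 5 classes of equal size. In the shortest class (12 to 1502 bases) the median log2 difference was 0.22 and 21.8% of genes had every KO HFD library above every WT HFD library, against 1.05% in the longest class (4641 to 26901 bases). In the longest class the median was −0.19 and 32.5% of genes had every KO HFD library below, against 3.82% in the shortest. The medians of the classes between were 0.07, −0.02 and −0.09. Each of the 9 pairs of a KO HFD with a WT HFD library showed it, with the shortest class 0.263 to 0.581 above the longest, while pairs within a group gave −0.119 to 0.189. In the chow libraries this gap against the WT HFD mean ran from −0.545 to 0.918, with the highest value in WT chow 2. The 19 called genes are short to medium in length (419 to 2718 bases), and with each library centred within 20 classes of length 20 genes were higher, all 19 among them, and 0 lower. Centring by length moved the log2 difference of Per3 from −0.75 to −0.57, of Hlf from −0.53 to −0.35, of Apob from −0.45 to −0.20, of Abca1 from −0.51 to −0.27 and of F5 from −0.69 to −0.44. It moved list medians toward 0 for the liver transcription factors (−0.12 to −0.07), the glutathione (0.31 to 0.14), P450 (−0.10 to −0.05), sinusoidal endothelial (−0.24 to −0.15), stellate (−0.21 to −0.11) and biliary lists (0.22 to 0.10). It moved them away from 0 for the complement (−0.06 to −0.21), adipocyte (−0.25 to −0.51), neutrophil (−0.06 to −0.25) and fatty acid synthesis lists (0.02 to 0.11).

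**Figure D5:**
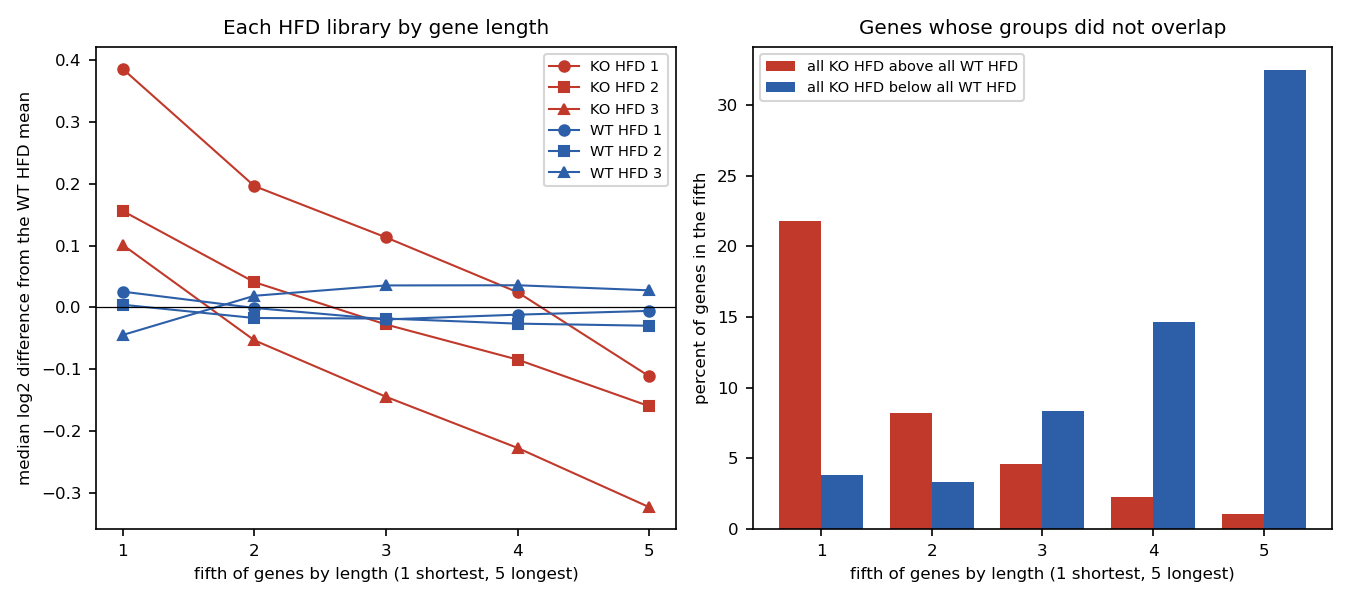
Left, the median log2 difference of each HFD library from the WT HFD mean in 5 classes of genes by length. Right, the percent of genes in each class whose groups did not overlap. The 3 KO HFD lines fall from short to long genes, and the WT HFD lines stay within 0.05 of 0.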

How the data were processed

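Total RNA extracted with Trizol from tissue labelled liver was sequenced from 12 libraries, and 6 of them (KO HFD 1 to 3 and WT HFD 1 to 3) were compared here. The authors deposited 1 table of FPKM values for 35275 genes, per the file headers. The submitters' processing notes name the tools STAR, TopHat, CASAVA and HTSeq 0.6.1, also DESeq2 with version 2, and the builds mm10 and GRCm38. The aligner behind these values, the annotation release and the strand setting were not given in the sources. Without a stated strand setting, overlapping and antisense genes cannot be told apart. All 12 columns were mapped by sample title, 0 value columns were left unmapped, and 27 symbols that had become dates were restored from the identifiers. Multiplied by gene length, 100% of values were whole multiples of a library's step to within 0.1 of a read, which gave the reads: 15705196 to 20311766 on genes over the 12 libraries. Bounds and floors cover counting error only. Libraries of a group differed by more than counting noise (chi-square over genes, 39.2 to 138 per gene), so each counted as 1 sample.

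Values were taken as log2(FPKM + 1), so changes at low levels are understated. Those genes with a mean of at least 0.5 FPKM over the 6 libraries, 11902 in all and 11089 of them protein-coding, were tested with trended empirical Bayes in limma 3.58.1 under R 4.3.3, with p-values adjusted by Benjamini-Hochberg and called under 0.05. The comparison, the 35 gene lists (733 genes, 729 in the table, 606 tested) and the alternatives were chosen with earlier results of these data known. Named were Hnf4a, up to 15 genes a direction with the largest change past the threshold, without overlap, at a mean of 1 FPKM or more in the higher group and without clone-like names or pseudogenes, or the 10 with the smallest p where fewer than 5 passed, and for each list up to 4 members past the threshold and its most abundant tested member. The remaining genes past the threshold and further list members without overlap were named after their values were seen. A few list members and named genes are not reported here. Alternatives changed the pseudocount, the filter, the scaling, which libraries were fitted, the weights and the moderation, added a replicate block, or left out single libraries. Chosen later, with the data seen, were limma-voom on recovered reads, centring by gene length, and fits without WT chow 2 and 3. Promoters and transcripts are from RefSeq (GRCm38.p6) and GENCODE. Python 3.11.15 and matplotlib 3.10.9 drew the figures.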

Additional observations from a re-analysis of the deposited data

Results flagged for a closer look

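The KO minus WT difference on the high fat diet was set against the same difference on chow in a fit of all 12 libraries (limma interaction term, on the log2(FPKM + 1) scale). It passed the threshold for 19 genes, 17 of them among the 19 genes higher on the high fat diet, and the remaining 2 were Defa24 and Gm15284. The interaction term holds the same high fat diet values that chose the 19, so this overlap gives no further support. The differences, high fat diet minus chow, were 5.44 for Ctrb1, 3.24 for Prss2, 3.16 for Try4, 3.27 for Try5, 2.68 for Pnlip, 3.01 for Cela3b, 2.48 for Clps, 2.05 for Sycn, 2.23 for Ctrl, 1.91 for Cpa1, 1.93 for Defa22, 1.89 for Reg1, 1.82 for Reg3b, 1.76 for Cel, 1.54 for Cpb1, 1.502 for Reg2 and 1.90 for 2210010C04Rik. Their SE ran from 0.165 to 0.764 and their adjusted p from 0.000274 to 0.0258. The SE of these tests includes WT chow 2 and 3, which stood apart from the other chow libraries. Without them, in 10 libraries, 7 genes passed, all among the 17: Ctrb1, Prss2, Try4, Try5, Pnlip, Clps and Cpa1. WT chow then held 1 library, whose spread is taken to equal that of the other groups. For Ctrb1, with 4.47 FPKM in that library, the difference was 7.07.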

How the results depend on the processing

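The 19 higher and 0 lower genes became 23 and 3 with a pseudocount of 0.1 (lower: Malat1, Myl2 and Myl3), 21 and 1 (Malat1) with 0.5, 7 and 0 without a filter, 7 and 0 with a mean of at least 2 FPKM, 20 and 1 (Malat1) with TPM, 21 and 0 with median-of-ratios, 22 and 1 (Yam1) with quantile normalization, 21 and 0 in the fit of 12 libraries, 24 and 0 in that of 10, 24 and 2 (Malat1 and Yam1) with library weights, 19 and 0 with robust moderation, 14 and 0 with limma-voom, and 20 and 0 when centred by length. Leaving out 1 library gave 4 to 22 higher and 0 to 1 lower. All genes called higher without a filter or with the stricter one were among the 19, and both settings change the number of genes tested. TPM moved the median of all genes from −0.03 to −0.13. Replicate numbers did not pair the libraries (correlations of same-numbered deviations 0.0529, 0.0745 and −0.0697), and with a replicate block 2 genes were higher, both among the 19, and 0 lower. The log2 difference of Hnf4a, KO HFD against WT HFD, ran from −0.26 to −0.01 but was 0.00136 when centred by length; the cause was not tested. For Acot1 and Cyp8b1, leave-one-out differences ran from −0.17 to 2.88 and from −0.45 to 0.64, and leaving out 1 library turned Acot1 to −0.17 (without KO HFD 1) and Cyp8b1 to −0.20 and −0.45 (without KO HFD 2 and WT HFD 1). With 3 libraries a group and 3 reads as the floor, genes at a few reads a library are where depth limits the comparison most.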
